A study of Nothobranchius furzeri with 2 samples.

Results

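The table of gene counts from turquoise killifish (Nothobranchius furzeri) liver and skeletal muscle holds 371 gene models of the biotype repeat_gene, the annotation's class for models built on repetitive sequence, and 91 of them carried at least 10 counts in total over the 60 libraries used. These 91 repeat gene models are described here. Another 245 models of the class had 1 to 9 counts and 35 had none, so that 91 of 371 passed the minimum against 10562 of 17530 protein-coding rows. The sum of counts chose the members, and the levels behind that sum are therefore given as a description. At the threshold, 5 members had exactly 10 counts (for example Nfu_g_1_005607 and Nfu_g_1_024891), and 8 models with exactly 9 counts stayed outside.

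Fish of the GRZ strain received, as fertilized eggs, a morpholino antisense oligo against dnd, a gene that germ cells need to survive (germ cell-removed), or a standard control morpholino (control), so that every fish was injected. Liver and skeletal muscle were taken at 1.5 months (young) and 3 months (old), and bulk RNA barcoding and sequencing (BRB-seq), which primes on the poly(A) tail and counts unique molecular identifiers, gave 5 libraries from 5 individuals per group. The 12 groups used were young and old, control and germ cell-removed, of female liver, female muscle and male muscle. The 2 rows annotated DND held 27 counts in all over the 60 libraries, which is too few to check the treatment labels in these tissues. Whether liver and muscle came from the same fish is not given in the sources used here.

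Repetitive sequence makes up a large part of the killifish genome, and much of it descends from transposable elements, mobile DNA that copies itself through RNA (retrotransposons such as LINEs) or moves by a transposase. Somatic cells keep such copies silent mainly through DNA methylation and heterochromatin, and the germ line adds small RNAs bound by Piwi proteins. A gene model in a repeat can be an element's own coding sequence, a host gene that holds a repeat, or a host gene derived from a transposon. The table does not say which of these a model is, and how reads matching several copies were counted is not given in the sources used here, so that counts may be shared between near-identical copies.

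The libraries held 28062 to 256671 counts. The 10 control livers were not sampled down and held 28062 to 180764, against 163968 to 256671 in the germ cell-removed livers, and 1 count was worth 20.5 counts per 1000000 (CPM) in a control liver of 48679 counts. Transcripts of the 12 rows of the liver marker list made up 2.60% to 15.1% of counts in liver and at most 0.206% in muscle, and the 7 rows of the muscle list 5.37% to 11.4% in muscle and at most 0.0066% in liver, so that the tissue labels matched their markers. One muscle library stood apart: young control female muscle replicate 2 held 18 counts on 10 of the 15 germ-line rows (piRNA and germ line list), where no other library held over 4, and it also had the highest share of repeat gene model counts in its group. Without it, 4166 rows in place of 4696 and 5 members in place of 9 reached the count minimum in the test of young female muscle.

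The 91 members held 4025 counts, 0.0405% of all counts. The counts were concentrated: the top 5 members took 42.1% of them, 7 members had at least 100 counts, 76 had fewer than 50, and the median member had 21. Most members carry no name. There were 55 without symbol or description, which held 65.8% of member counts, 7 described only as uncharacterized proteins, 18 named after zebrafish clones or loci, and 1 described as TeximYa, a name from a multicopy gene family of the platyfish. The 10 with a gene symbol were 5 zinc finger genes (ZNF814 at a pair of loci, ZFP62, ZNF467 and ZBED4, the last of a family derived from hAT transposases), the alpha tubulins TUBA8L4 and TUBA2, the ubiquitin ligase gene TRIM45, the histone H3 lysine 27 demethylase gene KDM6B (1 OF 2) and VGLL2A, a cofactor of TEAD transcription factors. Whether these models are the genes of their symbols is not given. The 5 zinc finger members together held 26 counts in liver and 73 in muscle.

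Their position set the members apart from other expressed genes. On the GRZ assembly that the files use, 56 of 91 (61.5%) lay on unplaced scaffolds, against 12.01% of the protein-coding rows with at least 10 counts, and the share was 62.0% over all 371 repeat models, so it belonged to the class and not to its expressed members. Neighbours and overlaps, here and below, were looked for only among the 18529 rows with an identifier. The scaffold members lay on 55 different scaffolds, and 35 members were the only such gene model on theirs. The other 35 lay on 15 linkage groups, with at most 4 on any. The median span was 5103 bases (441 to 61298), against 12492 for the protein-coding rows. In 9 members the span overlapped another gene model, in 3 of them on the same strand.

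In both tissues 85 of the 91 members had counts, 2 had counts in liver only (VGLL2A and Nfu_g_1_014792) and 4 in muscle only (among them KDM6B (1 OF 2) and TUBA2). Mean CPM over libraries was higher in female liver for 40 members and higher in muscle for 51. Detection was sparse: 15 members had a count in 10 or more of the 20 liver libraries and 18 in 20 or more of the 40 muscle libraries. The number of members with a count ran from 8 to 31 per library in control liver and from 29 to 52 in germ cell-removed liver, beside the depths given above, and from 13 to 43 in muscle.

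**Figure D1:**
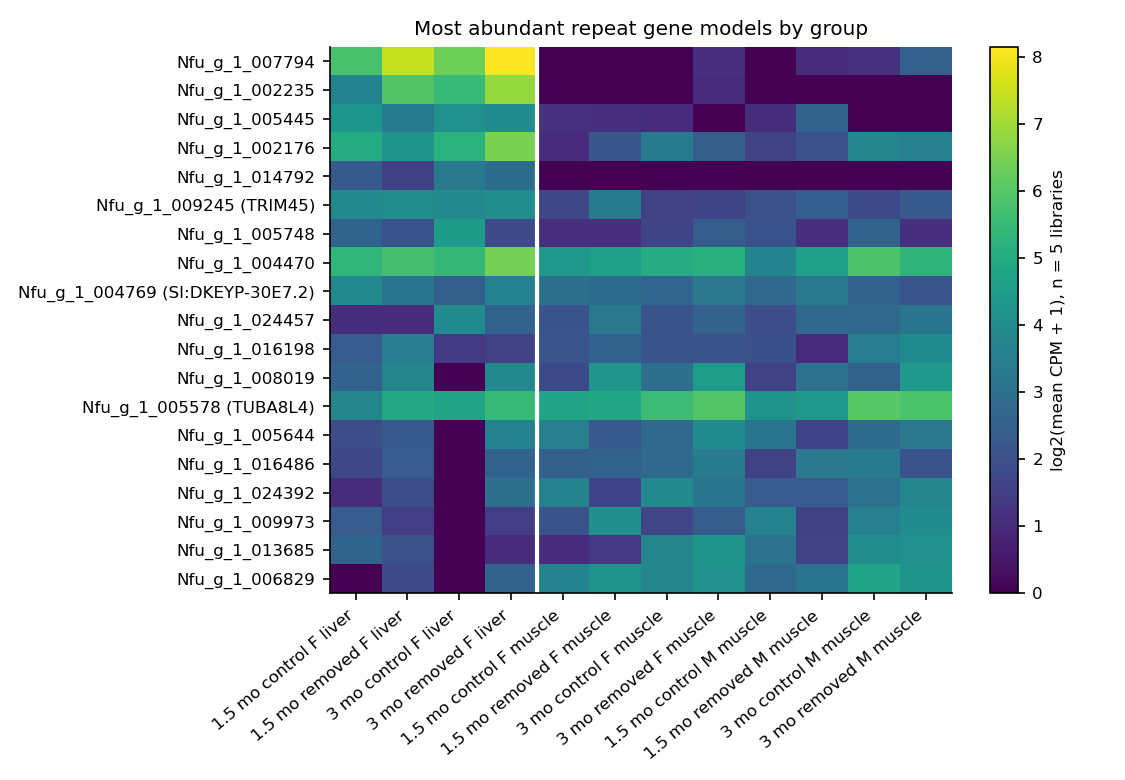
Mean level of the members that were among the 12 with the highest mean CPM in female liver or in muscle, in each of the 12 groups (columns, 5 libraries each, mo for months, F and M for sex), as log2(mean CPM + 1), with members ordered from liver-high to muscle-high. Nfu_g_1_007794 and Nfu_g_1_002235 were bright in liver and near 0 in muscle, and Nfu_g_1_004470 and TUBA8L4 were present in every group.

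By CPM, which here counts tagged molecules and was not divided by length, the liver was led by Nfu_g_1_007794 (147.5 ± 95.9 CPM, SD over 20 libraries), Nfu_g_1_002235 (58.0 ± 45.3), Nfu_g_1_004470 (55.3 ± 27.6), Nfu_g_1_002176 (43.7 ± 38.4) and TUBA8L4 (28.1 ± 16.8). After these came Nfu_g_1_005445, TRIM45, SI:DKEYP-30E7.2, Nfu_g_1_005748, Nfu_g_1_008019, Nfu_g_1_024457 and Nfu_g_1_014792, at 5.2 to 14.7 CPM. The means weight all libraries equally, so that a few counts in a shallow control liver can set these places. In old control liver replicate 2, of 28062 counts, 1 count was worth 35.6 CPM. Nfu_g_1_005748 and Nfu_g_1_024457 each had 2 counts in that library. Muscle was led by TUBA8L4 (40.1 ± 23.4 CPM over 40 libraries) and Nfu_g_1_004470 (30.0 ± 17.8), followed by Nfu_g_1_006829 (14.4 ± 12.5), Nfu_g_1_008019 (10.4 ± 10.0) and Nfu_g_1_013685 (9.2 ± 10.9). The next 7 (Nfu_g_1_009973, Nfu_g_1_024392, Nfu_g_1_005644, SI:DKEYP-30E7.2, Nfu_g_1_016486, Nfu_g_1_002176 and Nfu_g_1_016198) had 5.4 to 8.0 CPM. In both orders each member differed from the next by less than the SD of the higher one. These SDs also hold differences between the groups of a tissue, and members were not compared library by library, so they do not show that the order is unresolved.

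The summed share of the 91 members was highest in the liver of germ cell-removed females. It was 0.0332 ± 0.0086% of counts in young control liver and 0.0579 ± 0.0057% in young germ cell-removed liver (mean ± SD, 5 libraries each), and 0.0421 ± 0.0127% and 0.0895 ± 0.0090% at 3 months. At both ages the 5 germ cell-removed livers lay above all 5 controls, by ratios of the means of 1.74 and 2.13. The muscle groups had mean shares from 0.0183% (young control males) to 0.0446% (old control males), and control and germ cell-removed libraries overlapped in each of the 4 muscle comparisons. The share is a sum over members chosen by their counts in these libraries and is given as a description, with no test.

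**Figure D2:**
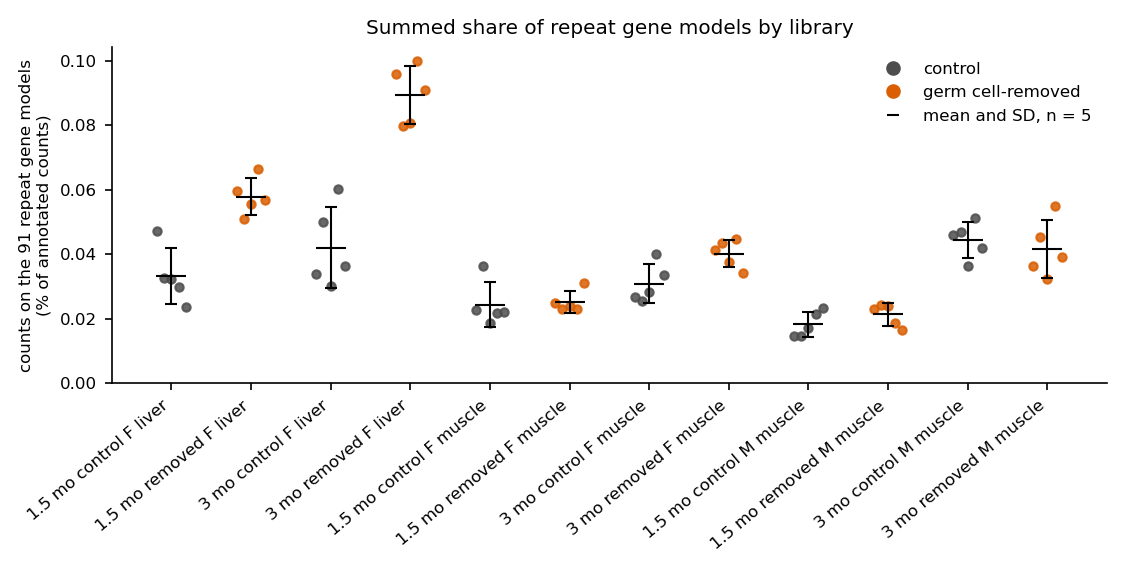
Counts on the 91 repeat gene models as a percentage of all annotated counts (vertical axis), 1 point per library, with the group mean and SD (5 libraries) in black, control in grey and germ cell-removed in orange. Shares ran from 0.0510% to 0.10003% in germ cell-removed liver and did not pass 0.0604% in control liver or 0.0551% in muscle.

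A share depends on what else fills the library. Rows above 1% of their own library took 39.0% to 49.5% of the counts in control liver and 25.5% to 34.5% in germ cell-removed liver. The rows left out of the total were all those above 1% of any compared library, 26 in young and 21 in old liver. With them left out, the ratios fell to 1.21 (young) and 1.48 (old). Without Nfu_g_1_007794 and Nfu_g_1_002235, and with the full total, they were 1.297 and 1.67. With the abundant rows left out, the shares in young liver were 0.0745 ± 0.0172% in control and 0.0903 ± 0.0082% in germ cell-removed fish. In old liver they were 0.0851 ± 0.0212% and 0.126 ± 0.0134%. The young means then lay closer together than the control SD. The rows above 1% differed between the groups. The top row was OL-VIT1 in the control livers except old replicate 1, and FETUB in the germ cell-removed livers. Liver markers took 2.60% to 4.05% of counts in control and 11.3% to 15.1% in germ cell-removed liver, opposite in direction to the total of the rows above 1%. The 2 sets overlap, because 12 marker rows that hold 15.1% include some above 1%. Markers of exocrine pancreas, which lies in and around the liver of many fish, had medians of 1.17% and 0.670% in young and old control liver. In germ cell-removed liver their medians were 1.98% and 1.18%, with ranges that overlapped those of control. In the edgeR test described below, 6 of 8 pancreas markers tested were called as higher after removal in young and 1 of 8 in old liver. Of 12 liver markers 10 and 9 were called as higher, against 7.80% and 6.94% of all rows. The part of these shifts in the members' levels was not tested, and in bulk tissue fewer cells of a type and less RNA per cell cannot be told apart.

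Which single members differed after germ cell removal in female liver was asked with the quasi-likelihood test of edgeR, with p-values adjusted after Benjamini and Hochberg over all rows with at least 10 counts in the 10 libraries compared. In young liver 2 of the 13 members tested rose and none fell, and 9 had a positive log2 fold change (median 0.74). Of all 5459 rows tested 9.58% were called, 7.80% as higher and 1.78% as lower, and the median row had a log2 fold change of 0.43. In old liver 1 of 10 tested members rose and none fell, 8 were positive (median 0.89), and 8.90% of 5576 rows were called, 6.94% as higher and 1.95% as lower, around a median of 0.46. Under DESeq2 the count in young liver was 1. The median row moves with the scaling (0.16 to 0.69 in young and 0.21 to 0.59 in old liver over the scalings tried), and changes are given below also relative to it.

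Nfu_g_1_007794 is a model of 2484 bases on the minus strand of scaffold00697 (48349 to 50832) with no name, and it held 28.6% of all member counts in liver. In young control liver it had 3, 11, 3, 8 and 4 counts and in young germ cell-removed liver 35, 39, 32, 40 and 30. In old control liver it had 4, 2, 2, 17 and 6 counts and in old germ cell-removed liver 56, 63, 57, 60 and 61. No control library reached any germ cell-removed library of its age. In CPM the means rose from 53.5 ± 10.7 to 173.1 ± 30.0 in young and from 80.3 ± 33.1 to 283.1 ± 32.5 in old fish. The log2 fold changes were 1.41 ± 0.29 (SE, adjusted p = 0.00090, edgeR) and 1.53 ± 0.33 (adjusted p = 0.00048), which were 0.98 and 1.07 above the median row. Both calls were lost when all libraries were thinned to the smallest depth (log2 fold changes 1.02 and 1.65, adjusted p = 0.51 and 0.13).

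The span of Nfu_g_1_007794 lies inside that of the protein-coding model Nfu_g_1_007797 on the same strand, a gene without a symbol that was looked at after these values were seen. That model had 9 counts in young control, 52 in young germ cell-removed, 9 in old control and 62 in old germ cell-removed livers. Its log2 fold changes, 1.305 ± 0.52 (adjusted p = 0.12, edgeR) and 0.98 ± 0.54 (adjusted p = 0.29), did not pass the threshold. Reads from transcripts of the 2 models can be told apart only where their exons differ.

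Nfu_g_1_002235, a model of 2826 bases on the minus strand, is the only one on scaffold02260 (13210 to 16035). It had 0, 1, 2, 2 and 1 counts in young control liver and 10, 17, 18, 7 and 11 in young germ cell-removed liver, and in old liver 1, 1, 2, 3 and 8 against 12, 38, 34, 25 and 18. Counts did not overlap at either age, but the control livers were also shallower: in CPM the groups were separate in young fish (11.7 ± 10.5 and 59.9 ± 16.1) and overlapped in old fish (43.9 ± 28.9 and 116.3 ± 37.1). The member rose in young liver (log2 fold change 2.11 ± 0.51, adjusted p = 0.0041, edgeR, 1.68 above the median row). In old liver the log2 fold change was 1.22 ± 0.43 with an adjusted p of 0.057. Its 6 counts in young control liver were below the minimum, which it reached through the germ cell-removed livers. The young call was lost without young control replicate 2 (adjusted p = 0.070), under DESeq2 (0.052) and after thinning (0.60).

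**Figure D3:**
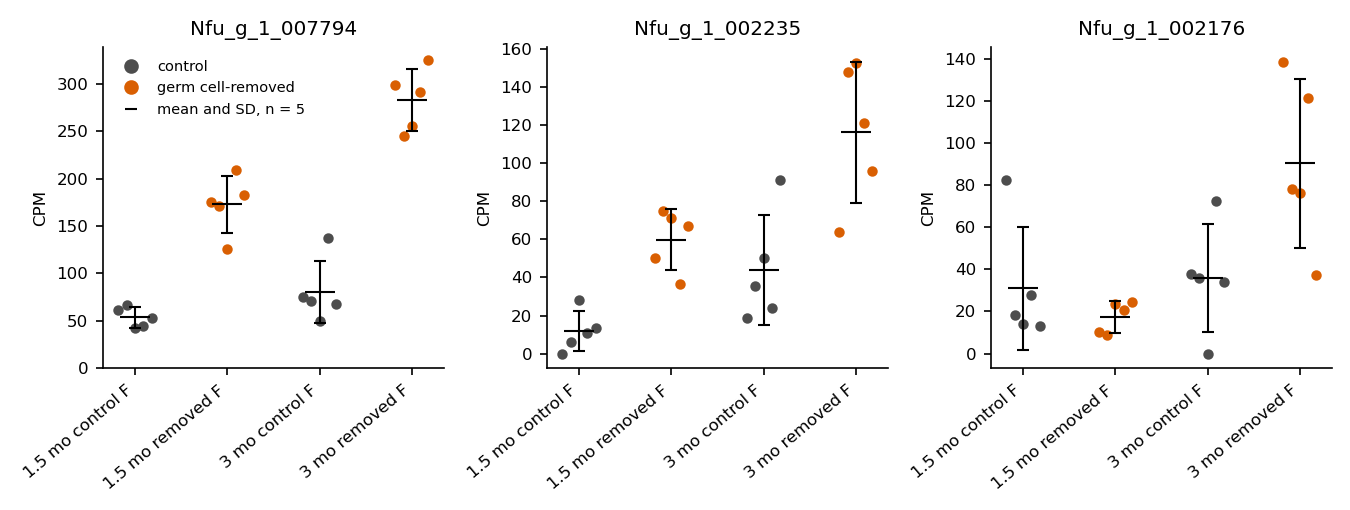
Levels of Nfu_g_1_007794, Nfu_g_1_002235 and Nfu_g_1_002176 in CPM (vertical axes, which differ between panels) in the 20 female livers, 1 point per library, with the mean and SD of 5 libraries in black. Nfu_g_1_007794 separated germ cell-removed from control liver at both ages (means 173.1 against 53.5 and 283.1 against 80.3), and Nfu_g_1_002176 was highest in old germ cell-removed liver (90.3).

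The other members tested in liver were not called. Those with the lowest unadjusted p in old liver after the first 2 were Nfu_g_1_008019 (15 counts in germ cell-removed and 0 in control livers, at least 1.57-fold higher against a floor of 3 counts over the control group, adjusted p = 0.10) and Nfu_g_1_005644 (12 against 0 counts, at least 1.26-fold, adjusted p = 0.14). Both reached the 10-count minimum only through the germ cell-removed livers, so that their direction was set by the filter. TUBA8L4 had log2 fold changes of 0.96 ± 0.57 and 0.53 ± 0.53 and Nfu_g_1_004470 of 0.19 ± 0.39 and 0.88 ± 0.44 in young and old liver, with adjusted p from 0.23 to 0.83 (edgeR).

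Age changed 1 member in liver. In germ cell-removed livers Nfu_g_1_002176 rose among 20 members tested, where 3.54% of 6694 rows were called, 1.82% as higher and 1.72% as lower. Of these members 12 of 20 were positive (median log2 fold change 0.38, all rows 0.02). In control livers none of 7 members was called and 2.1% of 3385 rows were. There 1 member had an unadjusted p under 0.05 and DESeq2 called none. The summed share was 1.55 times higher in old than in young germ cell-removed liver, with no overlap, and 1.27 times in control liver, with overlap. For the difference between ages in the effect of removal, none of 28 members was called, 0.0408% of 7349 rows were, 2 members had an unadjusted p under 0.05 and DESeq2 called none. The share of all rows under that unadjusted threshold is not given here, so these unadjusted counts cannot show an excess of members.

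Nfu_g_1_002176 is an unnamed model of 15454 bases on the plus strand of scaffold00431 (15956 to 31409). It had 2, 2, 6, 4 and 4 counts in young and 26, 20, 17, 25 and 7 in old germ cell-removed liver (17.6 ± 7.6 and 90.3 ± 40.2 CPM), and no young library reached an old one. The log2 fold change was 2.22 ± 0.39 (adjusted p = 0.0013, edgeR). In control liver it had 4, 3, 1, 5 and 1 counts at 1.5 months and 2, 1, 0, 9 and 3 at 3 months, which overlapped (log2 fold change 0.55 ± 0.56, adjusted p = 0.81). The test of the difference between these age effects gave 1.90 on the log2 scale (adjusted p = 0.64). Its span overlaps Nfu_g_1_002175 on the other strand, a protein-coding model without a symbol, which rose with it in germ cell-removed liver (2.50 ± 0.33, adjusted p = 5.8e-05). Because the strand setting of the counting is not given in the sources used here, reads of the 2 models cannot be told apart.

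Between liver and muscle the members called were no larger a share than the rows in general. In control females 5 of 23 tested members were higher and 5 lower in liver, where 48.5% of 7142 rows were called (16.0% higher and 32.5% lower in liver). In germ cell-removed females 7 of 41 were higher and 4 lower, where 47.9% of 8526 rows were called (26.8% higher and 21.1% lower). Of the 10 and 11 members called, 8 and 10 had fewer than 10 counts in the tissue where they were lower and so reached the minimum only through the other tissue. The median log2 fold changes of the members tested (liver over muscle) were -0.52 and -0.29 against -0.62 and 0.19 over all rows tested. Members called as higher in liver in both sets of females were Nfu_g_1_007794, Nfu_g_1_002235, Nfu_g_1_002176, Nfu_g_1_005445 and TRIM45, and only Nfu_g_1_006829 was called as lower in both.

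Nfu_g_1_007794 had 60 counts in the 10 control livers and 0 in the 10 control female muscles, at least 41.8-fold higher per count sequenced against a floor of 3 counts over the muscle group, and 7 counts in all 40 muscles. Nfu_g_1_002235 had 21 and 0 counts in the same groups (at least 14.6-fold) and 1 count in all 40 muscles. In germ cell-removed females, where 1 muscle count of each was found, the log2 fold changes were 7.38 ± 0.40 and 6.06 ± 0.51 (adjusted p = 2.1e-21 and 1.2e-14, edgeR). In both sets of females these members reached the 10-count minimum only through liver. These were the most liver-restricted of the abundant members.

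TRIM45, whose symbol is that of a ubiquitin ligase gene of the tripartite motif family, and the unnamed Nfu_g_1_005445 were also called as higher in liver. Nfu_g_1_005445 had 13 counts in control livers (0 to 3 per library, median 1) and 2 in control female muscles, and TRIM45 had 14 and 4. In germ cell-removed females the liver and muscle counts were 25 and 1 for Nfu_g_1_005445 and 32 and 8 for TRIM45. In both sets of females both members reached the count minimum only through liver, so that their direction was partly set by the filter. Their log2 fold changes in control females were 2.63 ± 0.70 and 2.04 ± 0.66 (adjusted p = 0.0015 and 0.0082, edgeR), and in germ cell-removed females 3.16 ± 0.74 and 1.26 ± 0.50 (adjusted p = 0.00034 and 0.033). The second call of TRIM45 was lost in 5 of the 20 fits that left out 1 library (adjusted p up to 0.084) and after thinning (0.13).

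VGLL2A is the symbol of a gene known in vertebrates for a role in skeletal muscle. Whether this repeat gene model is that gene is not given. The model was counted only in liver libraries. It had 3 counts in control livers (0, 2, 0, 1 and 0 in young and none in old), 1, 4, 2, 1 and 4 in young and 0, 2, 2, 1 and 1 in old germ cell-removed livers, and 0 in all 40 muscles. In germ cell-removed females this was at least 4.86-fold higher in liver against a floor of 3 counts over the muscle group (adjusted p = 0.00056, edgeR), and it reached the 10-count minimum only through the livers. In control females it had too few counts to be tested. The nearest gene model, 824 bases away on the same strand, is a pseudogene row with the symbol GIN1. The VGLL2A model also lies 9228 bases from Nfu_g_1_025591, a pseudogene row on the same strand that was looked at after these values were seen and held 11760 counts in liver and 115 in muscle.

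Members called as higher in muscle included Nfu_g_1_006829 and, in control females, TUBA8L4. Nfu_g_1_006829 had 97 counts over the 40 muscles, 22 of them in the 10 control female muscles (median 2 per library, 0 to 5) and 26 in the germ cell-removed female muscles, against 0 in the 10 control livers and 8 in the germ cell-removed livers. It was at least 3.51-fold higher in control muscle, and in germ cell-removed females the log2 fold change of liver over muscle was -2.09 ± 0.54 (adjusted p = 0.00091, edgeR). In both sets of females it reached the minimum only through muscle. TUBA8L4 has an alpha tubulin symbol, and its reads may be shared with other alpha tubulin genes. It was at 36.3 ± 17.1 CPM in control female muscle and 19.4 ± 11.9 in control liver. Its log2 fold change of -1.27 ± 0.36 (adjusted p = 0.0027) fell to -0.19 after thinning (adjusted p = 0.88).

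The others called as lower in liver were Nfu_g_1_024392, Nfu_g_1_005644 and Nfu_g_1_004223 in control females (1 count each in the 10 livers and 22, 15 and 11 in the 10 muscles), and Nfu_g_1_009973, Nfu_g_1_013685 and Nfu_g_1_017333 in germ cell-removed females (4, 4 and 3 counts in liver and 16, 17 and 12 in muscle). All of these reached the minimum only through muscle. Under DESeq2 the calls of Nfu_g_1_005644, Nfu_g_1_013685 and Nfu_g_1_017333 were lost (adjusted p = 0.080, 0.063 and 0.084), and the last 2 were each lost without 1 muscle library, old germ cell-removed replicate 4 (0.061) and young germ cell-removed replicate 1 (0.055). That of Nfu_g_1_004223 was lost with plain library sizes (0.087), under DESeq2, with a minimum of 1 count (0.067), with a replicate block (0.064) and without young control liver replicate 3 or 4 (0.052 and 0.068). Nfu_g_1_004470 was called as higher in liver only in germ cell-removed females (69.4 ± 29.8 against 29.0 ± 14.97 CPM, log2 fold change 0.95 ± 0.27, adjusted p = 0.0026, edgeR), and in control females it had 41.1 ± 16.8 and 25.5 ± 15.8 CPM. The liver libraries carried 1 library ID and the muscle libraries another, so that tissue and library pool cannot be told apart.

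Muscle was compared by age in 1 fit over the 40 libraries with a term for each sex and treatment. Of 66 members tested 4 rose with age and none fell, where 16.7% of 9125 rows were called, 12.1% as higher and 4.61% as lower, and the 4 of 66 lay below that background. The count of members was 9 with plain library sizes, 2 with relative log expression size factors, without the rows above 1% of a library or under DESeq2, 1 after thinning and 2 to 5 with 1 library left out. There were 44 members with a positive log2 fold change (66.7%, against 66.0% of all rows), and their median was 0.33 against 0.23. The summed share was 1.76 times higher in old muscle and overlapped, and 1.42 times with the 17 rows above 1% of any muscle library left out. Rows above 1% of their own library took medians of 54.0% to 56.2% of counts in young and 42.3% to 46.1% in old groups. Liver markers reached 0.206% in old against 0.0534% in young muscle. The part of the abundant rows and of the liver markers in the result was not tested.

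TUBA8L4 lies on linkage group sgr10 (4486529 to 4488850, minus strand). It had 1 to 7 counts in the 20 young muscles (median 3) and 5 to 16 in the 20 old muscles (median 10.5), or 22.8 ± 12.4 and 57.4 ± 18.3 CPM, with ranges of 5.77 to 54.2 and 31.6 to 92.8 CPM that overlapped. The log2 fold change was 0.98 ± 0.19 (adjusted p = 5.7e-05, edgeR), 0.75 above the median row. Nfu_g_1_004470, an unnamed model on sgr01 (39447487 to 39455035, plus strand), had 0 to 6 counts in young (median 4) and 2 to 12 in old muscle (median 8.5). Its log2 fold change of 0.66 ± 0.22 (adjusted p = 0.028) was 0.43 above the median row, and the call was lost without young control male replicate 4 (adjusted p = 0.055), with relative log expression size factors (0.071), without rows above 1% of a library (0.070), under DESeq2 (0.095) and after thinning (0.68). Its log2 fold changes were 0.31 and 0.13 in control and germ cell-removed females and 1.47 and 0.25 in control and germ cell-removed males, against 0.23 for the median row.

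Nfu_g_1_013685, an unnamed model on sgr08 (16916512 to 16921904, minus strand) 268 bases from DNAJA3B, had 10 counts in 7 of 20 young muscles (0 to 3, median 0) and 56 counts in 17 of 20 old muscles (0 to 9, median 2.5). Mean levels were 3.05 ± 5.29 and 15.4 ± 11.6 CPM, with overlap. The log2 fold change was 1.82 ± 0.44 (adjusted p = 0.0014, edgeR) and fell to 0.92 after thinning, where the call was lost (adjusted p = 0.41). TUBA2, on sgr07 (62380281 to 62384155, minus strand), had 13 counts in all, 1 in old control female replicate 3, 4 in old control male replicate 4 and 8 in old control male replicate 5. It reached the 10-count minimum only through old libraries, was at least 4.05-fold higher in old muscle against a floor of 3 counts over the young group (adjusted p = 0.043), and fell below the minimum without either of the 2 males. The call was also lost without old control female replicate 3 (adjusted p = 0.064), without any 1 of the 5 young control males (0.058 to 0.075), under the size factors of relative log expression (0.057), without rows above 1% of a library (0.052) and under DESeq2.

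**Figure D4:**
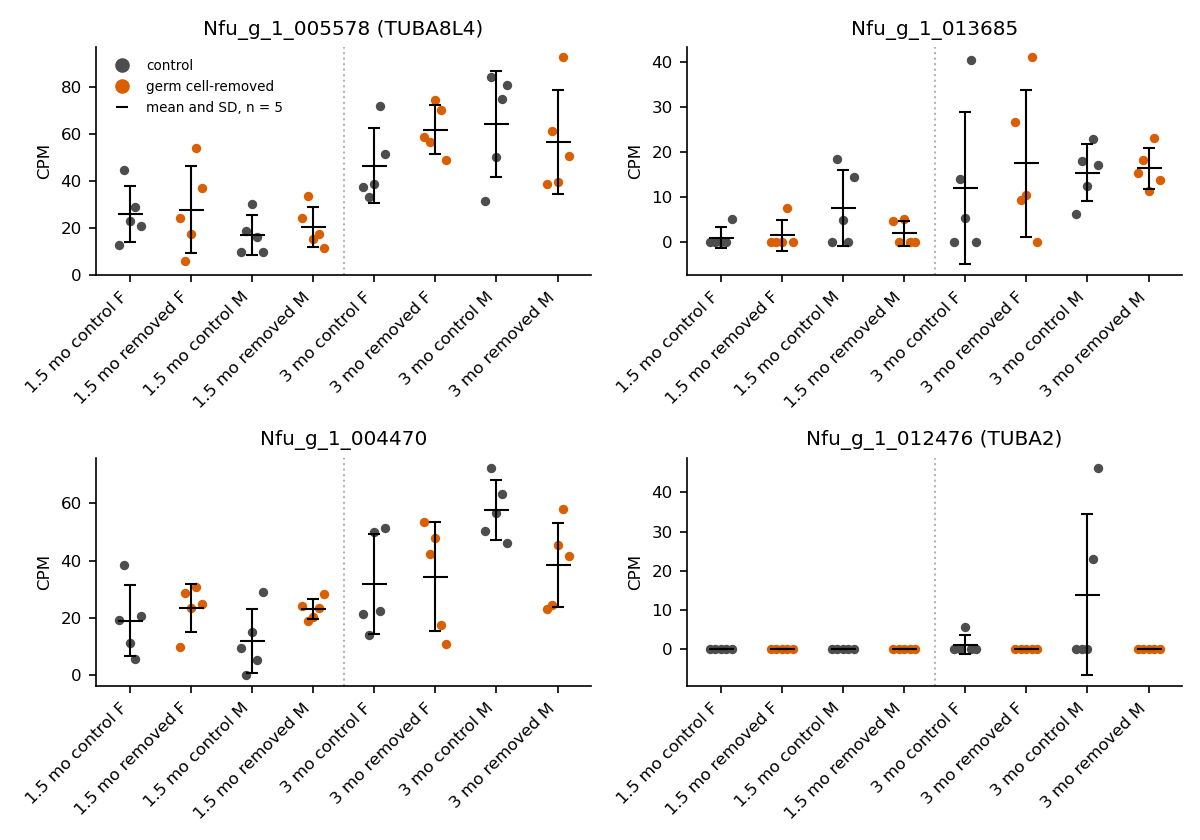
Levels in CPM (vertical axes, which differ between panels) of the members called with age in the 40 muscle libraries, 1 point per library, by age, sex and treatment, with the mean and SD of 5 libraries in black. TUBA8L4 was higher in old muscle in all 4 combinations of sex and treatment, and the 13 counts of TUBA2 came from 3 old control libraries.

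Within each of the 4 combinations of sex and treatment, tested alone with 5 against 5 libraries, none of these members was called. The log2 fold changes of TUBA8L4 were 0.45 and 0.78 in control and germ cell-removed females and 1.29 and 0.90 in males (adjusted p from 0.073 to 0.59, edgeR). Those of Nfu_g_1_013685 were 2.58, 2.72, 0.45 and 2.16 in the same order (adjusted p from 0.12 to 0.79). All were positive. For Nfu_g_1_013685 the young muscles of each combination together stayed below the count minimum, which was reached only through the old muscles. Its shared sign was therefore partly set by the filter. The combinations are also parts of the fit over all muscles that called both members, so their signs are no independent evidence. Nfu_g_1_002176, which rose with age in germ cell-removed liver, had a log2 fold change of 1.36 ± 0.51 in muscle with an adjusted p of 0.052.

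By sex 1 of the 66 members was called in muscle, a share near the 1.39% of all rows called (0.460% as higher and 0.932% as lower in males). KDM6B (1 OF 2), a model on scaffold00392 (56555 to 57578, plus strand), carries the symbol of the demethylase gene. Whether this repeat gene model is that gene is not given. The model had 0, 0, 0, 1 and 0 counts in young control and 0, 1, 1, 1 and 0 in young germ cell-removed males. In old males it had 1, 0, 0, 3 and 0 in control and 2, 2, 0, 1 and 1 in germ cell-removed fish. It had 0 in all 40 female libraries, liver included, and reached the 10-count minimum only through males. Its level was at least 4.78-fold higher in male muscle against a floor of 3 counts over the females (log2 fold change 2.76 ± 0.66, adjusted p = 0.013, edgeR). DESeq2, edgeR's filterByExpr, thinning and each combination of age and treatment alone called none of the members.

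In muscle no member was called after germ cell removal in any of the 4 pairwise tests. In young females 3 of 9 tested members had an unadjusted p under 0.05, in old females 2 of 17, in young males 1 of 6 and in old males 2 of 17, and DESeq2 called none. Few rows of any kind were called: 0.0639% and 0.165% in young and old females and 0% in both ages of males. For the difference between the sexes in the effect of removal, 6 of 66 members had an unadjusted p under 0.05, edgeR and DESeq2 called none, and edgeR called 0% of rows. The share of all rows with an unadjusted p under 0.05 is not given here. The unadjusted counts of members therefore cannot show an excess, and the adjusted shares are no background for them.

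Nfu_g_1_008019 had a positive log2 fold change in each muscle test in which it could be tested. It is an unnamed model on sgr13 (17328521 to 17332783, minus strand), 60393 bases from the nearest gene model, TRIM14 (1 OF 2). In females it had 0, 2, 0, 0 and 0 counts in young control and 4, 4, 2, 3 and 1 in young germ cell-removed muscle, and 1, 0, 2, 3 and 1 against 4, 2, 4, 6 and 4 in old muscle. In males it had 0, 0, 1, 0 and 1 against 1, 1, 2, 3 and 0 in young and 1, 0, 1, 1 and 1 against 1, 2, 2, 6 and 7 in old muscle. The groups overlapped in counts in all 4 pairs. In each tested pair the control muscles together stayed below the count minimum, which was reached only through the germ cell-removed muscles. The shared sign of these tests was therefore partly set by the filter. The log2 fold changes were 2.65 ± 0.85 in young females, 1.42 ± 0.56 in old females and 2.05 ± 0.60 in old males (adjusted p = 0.56, 0.61 and 0.98, edgeR), and young males had too few counts to be tested.

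After these values were seen, the 40 muscles were fitted together with a term for each sex and age. Nfu_g_1_008019 was then the only one of 66 members called (log2 fold change 1.83 ± 0.34, adjusted p = 0.00069, edgeR), where 0.449% of rows were called, 0.0658% as higher and 0.384% as lower. Control muscles held 15 counts in 11 of 20 libraries (4.13 ± 4.51 CPM) and germ cell-removed muscles 59 in 19 of 20 (16.8 ± 10.0 CPM). Because the fit was chosen for this member, its p is no independent evidence. The call was kept in all 40 fits that left out 1 library and lost after thinning (adjusted p = 0.11). In female liver the member had 0, 1, 0, 1 and 1 counts in young control, 1, 2, 5, 3 and 2 in young germ cell-removed, none in old control and 3, 6, 4, 0 and 2 in old germ cell-removed fish.

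**Figure D5:**
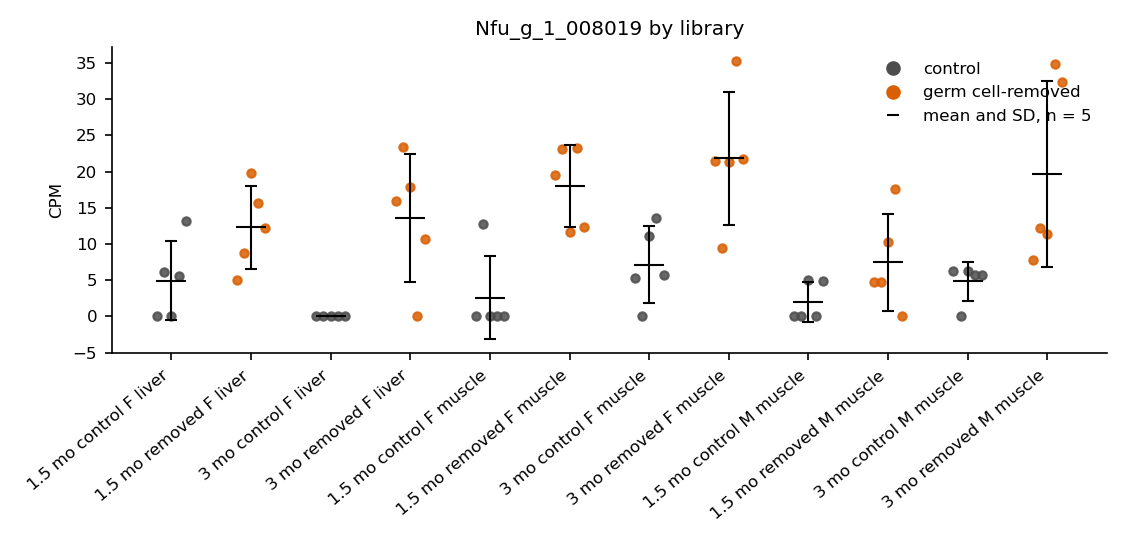
Level of Nfu_g_1_008019 in CPM (vertical axis) in the 60 libraries, 1 point per library, by tissue, sex and age, with control and germ cell-removed side by side and the mean and SD of 5 libraries in black. Germ cell-removed means were above control means in all 6 pairs, for example 18.0 against 2.6 CPM in young female muscle.

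The genes known to silence or sense repeats were read from 3 lists. Of the piRNA and germ line list, 15 rows matched, none had enough counts to be tested in the liver comparisons by removal or age, and the 1 tested in muscle was not called. Of 18 rows for DNA methylation and heterochromatin, UHRF1, which brings the maintenance methyltransferase to replicated DNA, rose after removal in young liver (log2 fold change 4.09 ± 1.31, adjusted p = 0.043, edgeR, 1 of 9 tested) and fell with age in germ cell-removed liver (-4.62 ± 0.97, adjusted p = 0.0095, 1 of 12). Of all rows 9.58% were called in the first comparison, 7.80% as higher, and 3.54% in the second, 1.72% as lower. The median rows had log2 fold changes of 0.43 and 0.02. Both comparisons use the same young germ cell-removed livers, so that the calls of UHRF1 are not independent. With age in muscle HELLS, a chromatin remodeler needed for DNA methylation, and MPHOSPH8, a subunit of the HUSH silencing complex, fell (-1.64 ± 0.56 and -0.76 ± 0.21, adjusted p = 0.031 and 0.0055, edgeR, 2 of 13). There 16.7% of all rows were called, 4.61% as lower. Of 22 rows for restriction and nucleic acid sensing, STAT2, a transcription factor of the interferon response, rose after removal in old liver (0.85 ± 0.29, adjusted p = 0.045, edgeR, 1 of 9). In that comparison 8.90% of all rows were called, 6.94% as higher. The median row there had a log2 fold change of 0.46, so that part of the STAT2 value is shared with rows in general. None of 14 was called with age in muscle. The calls of list genes were read from the main fit only and were not examined under the alternatives applied to the members. Whether UHRF1 or another list gene reached the 10-count minimum through 1 side only was also not examined. Where that holds, the direction was set by the filter. The 18 rows for DNA methylation and heterochromatin together held 48 counts in young control and 201 in young germ cell-removed liver, groups of unequal depth. As a share of counts their medians were 0.0085% in young control and 0.0201% in young germ cell-removed liver. In old liver the medians were 0.0193% in control and 0.0214% in germ cell-removed fish, with overlapping ranges.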

How the data were processed

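BRB-seq libraries of female liver (20) and of muscle of both sexes (40) were used. The authors extracted molecular identifiers with UMI-tools, trimmed reads with Trim Galore 0.6.7, mapped them to the GRZ assembly with HISAT2 2.2.1, assigned them with featureCounts 2.0.1 and deposited unnormalized counts of unique identifiers per gene. Reads of 46 libraries were sampled to 1000000 before counting, and those of the 10 control livers and 4 muscles were not. How multiply mapped reads and strand were treated is not given in the sources used here. The 20 male liver columns were not used because they were not joined to gene names, and of 20406 rows the 1877 without identifier were left out.

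Members were the repeat_gene rows with at least 10 counts. The members and gene lists were chosen with earlier results of these data known. CPM is counts per 1000000 annotated counts. Tests used edgeR 4.0.16 (R 4.3.3) with TMM normalization and the quasi-likelihood test on rows with at least 10 counts in the libraries compared, with Benjamini-Hochberg adjustment over all rows tested and a threshold of 0.05. The code was tested on simulated counts. Alternatives were other normalizations, DESeq2 1.42.0, other filters, thinning of all libraries to the smallest, subgroups, a replicate block and leaving out each library. Permutation tests planned for the summed share were not run, because its members were chosen from these counts. In the 120 pairs of libraries compared, no library was a duplicate of the other, and the remaining pairs were not compared. Counting intervals and floors (3 counts over a group) cover counting error only. Named members were the 12 with the highest mean CPM in each tissue, every member called in a comparison and those with an outlying library. Members just below the threshold in a comparison and 3 neighbouring gene models were added after their values were seen.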

Additional observations from a re-analysis of the deposited data

Results flagged for a closer look

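In 86 groups of 5 libraries the highest and lowest value were compared with the rest, for the summed share and for the members named in the report, and 7 groups had 1 value whose gap to the others was above the 95% critical value of Dixon's test. A rate of 1 in 20 would give about 4.3. That rate holds for independent normal values and need not hold for small counts at unequal depth, so the flags are a description. Nfu_g_1_002176 stood at 82.2 CPM (4 counts in the shallowest library of its group) in young control liver replicate 1, with the others at 13.2 to 27.7. Nfu_g_1_007794 stood at 137 CPM (17 counts) in old control liver replicate 4, with the others at 50.1 to 75.1, and Nfu_g_1_014792 at 32.0 CPM (6 counts) in old germ cell-removed liver replicate 1, with the others at 0. Nfu_g_1_024392 stood at 38.4 CPM (6 counts) in young control female muscle replicate 2, and at 23.5 CPM (4 counts) in old germ cell-removed female muscle replicate 4, where the others had 0 or 1 count. The summed share stood at 0.0365% in young control female muscle replicate 2 and at 0.0310% in 1 young germ cell-removed female muscle. Causes were not tested.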

How the results depend on the processing

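Among 31 changes of named members none reversed under an alternative in which the member was tested. These changes were chosen because the same counts called them, and many had fewer than 10 counts on the lower side. A reversal was therefore hardly possible, and its absence is no sign of robustness. Of 151 counts of called members 115 stayed within 1.5 times. The other counts follow, and the cause of a difference was not tested. For removal in young liver DESeq2 gave 1, edgeR's filterByExpr 1 and thinning to the smallest library 0. For removal in old liver plain library sizes and leaving out rows above 1% of a library each gave 2 and thinning 0. For age in germ cell-removed liver plain sizes, DESeq2 and filterByExpr each gave 2. For age in muscle plain sizes gave 9, relative log expression size factors, leaving out abundant rows and DESeq2 each gave 2, filterByExpr and thinning each gave 1, and each of the 4 combinations of sex and treatment alone gave 0. For sex in muscle DESeq2, filterByExpr, thinning and each combination alone gave 0. For tissue filterByExpr gave 0 and thinning 1 in control females, and filterByExpr gave 4 in germ cell-removed females. For removal over all muscles filterByExpr, thinning and each combination alone gave 0, and a minimum of 1 count gave 2. Thinning and filterByExpr test fewer members.

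Leaving out 1 library moved the count of called members from 1 to 2 for removal in young and old liver, from 2 to 5 for age in muscle, from 9 to 11 and from 10 to 12 for tissue in control and germ cell-removed females, and not elsewhere. The summed share differed by 0.0223 to 0.0282 and 0.0444 to 0.0520 percentage points for removal in young and old liver in these fits, and by -0.00060 to 0.0039, 0.0080 to 0.0117, 0.0022 to 0.0043 and -0.0062 to -0.00055 for removal in young and old female and young and old male muscle.

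Of 81 alternatives for the difference in summed share, 60 stayed within 1 SD. Without rows above 1% it was 0.0158 (removal, young liver), 0.0159 (removal, old female muscle), 0.0075 (removal, young male muscle), 0.0401 (age, germ cell-removed liver) and 0.0485 percentage points (tissue, germ cell-removed females). Without the most abundant member it was 0.0127 and 0.0271 for removal in young and old liver, 0.0206 for age in germ cell-removed liver and 0.0182 for tissue in germ cell-removed females. Without Nfu_g_1_007794 and Nfu_g_1_002235, an alternative chosen after seeing the data, these 4 were 0.0079, 0.0199, 0.0150 and 0.0094, and tissue in control females was 0.00054. Within combinations it was 0.0065 and 0.0263 for age in control females and males, 0.0137 and -0.0061 for sex in old and young controls, 0.0492 and 0.0327 for tissue in old and young germ cell-removed females, and 0.0094 for removal in old female muscle.

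With the replicate number as a block, 5 members were called with age in muscle and 9 by tissue in control females, and the counts of called members were otherwise the same. Samples with the same number correlated between -0.41 and 0.53 in their deviations, no pair of groups had all 5 correlations above 0.1, and the numbers were not taken to pair the samples. With 76 members under 50 counts, depth limited most members to large changes.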
